A study of Mus musculus with 36 samples.

Results

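The replication-dependent histone genes are the clustered genes that encode the bulk histones H1, H2A, H2B, H3 and H4. They were taken as the protein-coding genes whose symbol starts with Hist1h, Hist2h or Hist3h, in newer names mostly H1f, H2ac, H2bc, H3c and H4c genes, with Hist3h2a now H2aw and Hist3h2ba now H2bu2. Of 66 such genes in the tables, 60 had 10 or more counts in 4 or more of the 36 libraries and were kept, among 55414 gene identifiers in all. These were 6 of 6 H1 genes, 15 of 18 H2A genes, 17 of 18 H2B genes, 10 of 12 H3 genes and 12 of 12 H4 genes. Hist1h2aa, Hist2h2aa1, Hist2h2aa2, Hist2h2bb, Hist2h3b and Hist2h3c1 stayed below that minimum. In the GRCm38 annotation 53 of the kept genes lie on chromosome 13, 5 on chromosome 3 and 2 on chromosome 11.

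The libraries came from mouse blood progenitors that all carried the Kmt2a-AFF1 fusion, which models infant mixed-lineage leukaemia. The 12 leukaemic mice overexpressed miR-130b according to the sample labels and miR-130a according to the design text, whereas the 4 control mice carried a scrambled microRNA with the same fusion and had no leukaemia. Cells were sorted by surface markers into HSC/MPP (lineage-negative, c-Kit+, Sca-1+, Flt3-), LMPP (the same but Flt3+) and LK/CLP (lineage-negative, c-Kit+, Sca-1-). From each leukaemic mouse a single cell type was sequenced from both bone marrow (BM) and the CNS, the central nervous system, with 4 mice per type. Each control mouse gave all 3 cell types from BM, so there were 9 groups of 4 libraries. No source used here gives the ages of the mice, and the leukaemic cells were collected at terminal disease.

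As background, a dividing cell must make a new set of histones each time it copies its DNA, and the clustered genes supply them almost only in S phase. Their mRNAs end in a conserved stem-loop that is bound by the protein SLBP, in place of the poly(A) tail of other mRNAs. The libraries were made from total RNA with a stranded low-input kit, so that a poly(A) tail was not needed for an mRNA to be sequenced.

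A stem-loop was searched for after the stop codon of each gene in the transcripts of the GRCm38 annotation, as a 6-base arm starting with GG, a 4-base loop starting with TTT and the complementary arm. It was found in 40 of the 60 genes, 21 to 46 bases after the stop codon (median 31). Of the 20 genes without a match, 13 had transcript models that ended too close to the stop codon, and the other 7 were Hist1h1a, Hist1h2bc, Hist1h2bq, Hist1h2br, Hist2h2be, Hist1h3g and Hist1h4a. Outside the family 25 of 21835 protein-coding genes held the same pattern anywhere in a transcript, among them H2afx. There were 6 distinct stem-loops. The 10 printed here cover all 6, and each belongs to a gene whose values are described. They run 5′ to 3′ as DNA letters, with the 16 bases of the stem-loop in capitals and 4 bases on either side in lower case.
Hist1h1c: aaaaGGCTCTTTTCAGAGCCacca
Hist1h2ad: caaaGGCTCTTTTCAGAGCCatcc
Hist1h3b: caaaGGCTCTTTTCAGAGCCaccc
Hist3h2a: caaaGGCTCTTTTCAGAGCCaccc
Hist1h2bk: caaaGGCTCTTTTAAGAGCCacta
Hist1h1t: caaaGGCTCTTTTAAGAGCCactt
Hist1h4h: caaaGGCCCTTTTCAGGGCCgccc
Hist2h4: taacGGCCCTTTTTAGGGCCaacc
Hist1h4b: aaaaGGTCCTTTTCAGGACCactc
Hist2h2ac: aaaaGGCTCTTTTTAGAGCCacca
The form of Hist1h1c, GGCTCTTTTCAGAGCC, was found in 23 genes. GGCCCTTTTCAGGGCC and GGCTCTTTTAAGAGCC were found in 6 genes each, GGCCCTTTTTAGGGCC and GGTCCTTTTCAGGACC in 2 each, and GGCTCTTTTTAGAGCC in Hist2h2ac alone among the 60.

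The promoters of the classes differed in sequence as well. RefSeq promoters (GRCm38.p6) were matched to 54 of the 60 genes by symbol, and 4 short motifs were searched on both strands in the 250 bases before the transcript start. The octamer ATTTGCAT, the site of octamer-binding factors, was present in 6 of 14 H2A and 5 of 15 H2B promoters and in none of the 6 H1, 8 H3 and 11 H4 promoters, against 1.61% of all 27025 promoters. Some H2A and H2B genes lie head to head with overlapping windows, such as Hist1h2ah and Hist1h2bk. A single site can therefore count for both classes. CCAAT was present in 83.3% of the 54 promoters and 34.5% of all promoters, but in 3 of the 11 H4 promoters. The letters AAACACA, a motif known from H1 promoters, were found in 5 of 6 H1 promoters and in 6.22% of all promoters, and TATAAA in 51.9% of the 54 against 12.97%. None of these 4 motifs contains another. The 180 bases before the transcript start of 3 genes are shown because they carry the octamer, the H1 motif and both orientations of CCAAT, with the matches in capitals. The first is on the plus strand at chr13:22035641-22035820, the next on the plus strand at chr13:23738627-23738806 and the last on the plus strand at chr11:58954505-58954684.
Hist1h2bk: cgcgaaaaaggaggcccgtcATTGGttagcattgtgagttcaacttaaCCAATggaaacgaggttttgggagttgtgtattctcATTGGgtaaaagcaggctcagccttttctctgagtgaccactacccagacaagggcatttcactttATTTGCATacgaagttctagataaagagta
Hist1h1c: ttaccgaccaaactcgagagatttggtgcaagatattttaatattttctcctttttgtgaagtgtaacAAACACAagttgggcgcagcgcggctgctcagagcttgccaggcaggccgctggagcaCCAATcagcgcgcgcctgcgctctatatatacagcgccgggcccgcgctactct
Hist3h2a: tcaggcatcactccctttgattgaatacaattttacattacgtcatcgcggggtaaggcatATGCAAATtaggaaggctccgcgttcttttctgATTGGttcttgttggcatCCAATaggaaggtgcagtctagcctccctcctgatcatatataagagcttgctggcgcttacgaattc
A match of letters is a description of the window and not of binding.

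Library totals ran from 1.91 M to 30.4 M counts (M, the usual mega prefix), and the shallowest was leukaemia BM LMPP replicate 3. Levels are given as CPM, the count of a gene divided by the library's total in M. Counts in 1422 sensory receptor genes, which blood cells do not use, set a background per kb of gene. Over identifiers with a gene symbol only, this background came to 20.7 to 26.7% of the counts in control HSC/MPP, 13.5 to 25.8% in control LMPP, 6.26 to 11.9% in control LK/CLP and 0.415 to 25.5% in leukaemia. Of the counts of the 60 histone genes it made up 6.69 to 8.12% in control HSC/MPP, 0.202 to 0.608% in control LK/CLP and at most 2.66% in leukaemia. Because the scaling over all tested genes takes in many genes at background, each comparison was also fitted on genes above background, meaning a count over 3 times the expected background plus 10 in 4 or more libraries, with the scaling computed over those genes. A gene could thus pass through the 4 libraries of a single group in which it was high. A single predicted gene, Gm10800, which enters the total behind CPM, held 18.7 to 23.4% of all counts in control HSC/MPP, 17.4 to 28.2% in control LMPP, 3.01 to 8.53% in control LK/CLP and 0.164 to 28.8% in leukaemia, and its part in the results was not tested. Identifiers without a gene symbol also enter that total. They held 10.3 to 15.6% of all counts in control HSC/MPP and 8.42 to 21.2% in control LMPP. In control LK/CLP they held 25.4 to 37.7%, and in leukaemia 11.8 to 47.4%. Their part in the CPM values was not tested either. Of the sort markers, Ly6a, which encodes Sca-1, followed its gate, at 0.228 to 3.02 CPM in LK/CLP and at 4.996 to 28.003 CPM in the other groups. In the controls Flt3 was at 99.7 to 301 CPM in LMPP against 25.6 to 32.8 CPM in HSC/MPP. Flt3 in leukaemia is not described here.

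The 60 genes together held 0.111 to 0.155% of all counts in control HSC/MPP, 0.125 to 0.397% in control LMPP, 0.708 to 1.03% in control LK/CLP and 0.359 to 1.49% in leukaemia. In controls the summed level was 1510, 1554, 1377 and 1109 CPM in HSC/MPP replicates 1 to 4, 1251, 3541, 1764 and 3975 CPM in LMPP, and 9714, 10254, 7076 and 9713 CPM in LK/CLP. Every control LK/CLP library was above every control HSC/MPP and LMPP library, while HSC/MPP and LMPP overlapped. In leukaemia BM the sum was 7300, 7357, 5782 and 8627 CPM in HSC/MPP, 12758, 6651, 8261 and 12804 CPM in LMPP, and 7904, 12843, 14902 and 14440 CPM in LK/CLP. In leukaemia CNS it was 4451, 3593, 5250 and 5112 CPM in HSC/MPP, 6297, 4451, 6625 and 11604 CPM in LMPP, and 7447, 8821, 6810 and 12308 CPM in LK/CLP. Each of the 24 leukaemia libraries except CNS HSC/MPP replicate 2 was above all 8 control HSC/MPP and LMPP libraries, and the leukaemia and control LK/CLP ranges overlapped. In such bulk samples, fewer cells in S phase and less histone mRNA per cell cannot be told apart.

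**Figure D1:**
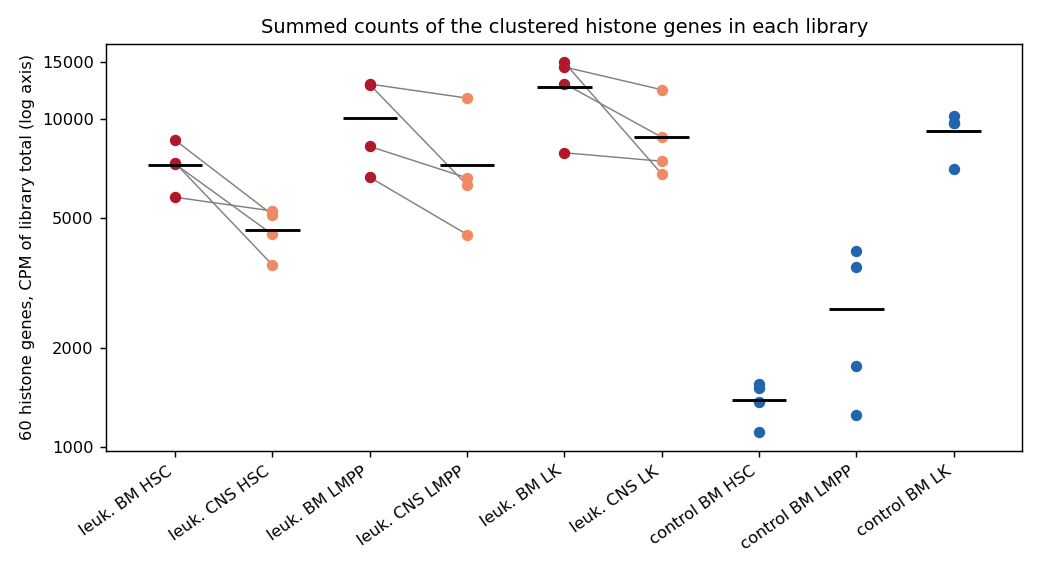
Summed level of the 60 clustered histone genes in each of the 36 libraries, in CPM on a log axis. Points are libraries, bars are group means over 4 libraries, and lines join the BM and CNS library of a mouse. Control HSC/MPP sat at 1109 to 1554 CPM and control LK/CLP at 7076 to 10254 CPM.

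The family kept almost the same make-up across all groups. H2B genes held 31.4% ± 2.50 of the family's counts (SD over 36 libraries), H3 genes 22.8% ± 1.75, H4 genes 21.7% ± 1.37, H1 genes 17.4% ± 1.67 and H2A genes 6.78% ± 0.858. Per kb of coding sequence, the shares were 32.3% for H2B, 27.9% for H4, 22.2% for H3, 10.7% for H1 and 6.93% for H2A. H2A therefore stood lowest on both scales, although a nucleosome takes up as many H2A as H2B proteins. The H2A genes Hist2h2aa1 and Hist2h2aa2 had only 0 and 60 counts over all libraries. Hist1h2aj, with 23743 counts, is annotated as a pseudogene and was left out. How the counting of reads shared between copies affects the shares of the classes was not tested. The H2A share was 7.56% ± 0.844 in control HSC/MPP and 6.26% ± 0.980 in control LK/CLP (SD, n = 4), with ranges that overlapped. The H3 share did not overlap between these groups, at 20.6 to 22.0% in control HSC/MPP and 22.1 to 23.6% in control LK/CLP. The H1, H2B and H4 ranges overlapped. Leukaemia BM LMPP replicate 3 stood apart, with H2B at 43.8%, H3 at 15.7% and H4 at 16.9%, which were the highest H2B share and the lowest H3 and H4 shares of the 36 libraries.

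**Figure D2:**
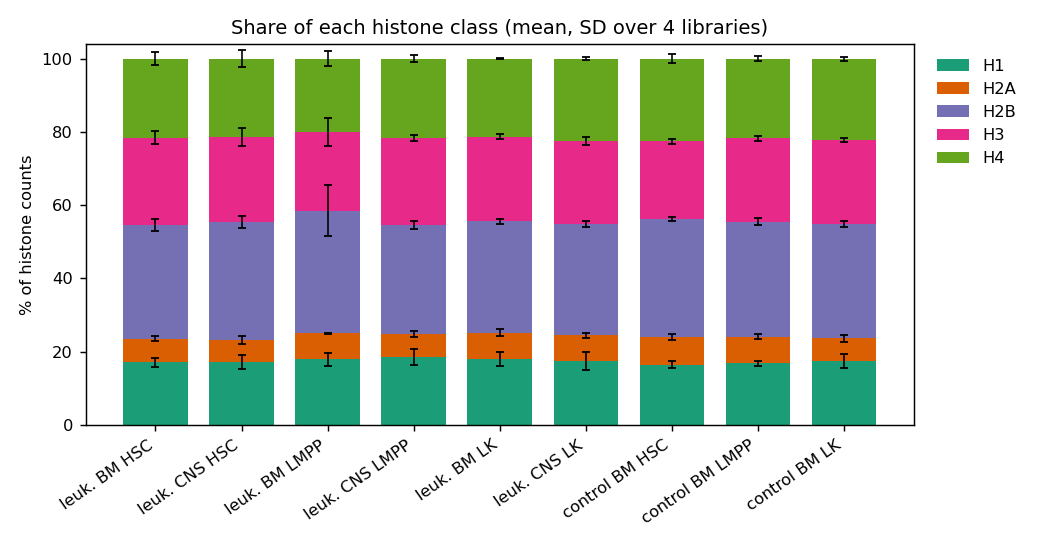
Share of the family's counts held by each class in the 9 groups, in percent, as the mean over 4 libraries with the SD as error bars. H2B took the largest share and H2A the smallest in every group.

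Single genes ranged over more than 2 orders of magnitude. The linker histone genes Hist1h1c and Hist1h1d led, with means over the 36 libraries of 362.6 and 305.2 CPM, and Hist1h1c alone held 5.11% of the family's counts. The H2B genes Hist1h2br and Hist1h2bq had means of 287.0 and 286.8 CPM, the H3 genes Hist1h3b and Hist2h3c2 249.1 and 234.1 CPM, and the H4 genes Hist1h4h and Hist1h4d 195.3 and 192.8 CPM. The 2 highest H2A genes, Hist1h2ad and Hist1h2ai, reached only 51.0 and 49.9 CPM. At the low end stood Hist2h2be at 6.72 CPM, Hist3h2a at 3.31 CPM, Hist3h2ba at 3.02 CPM and Hist2h2ab at 0.732 CPM. Of the histones known from the testis, the linker histone gene Hist1h1t had a mean of 1.42 CPM and was at 0 in 1 library, whereas the H2B gene Hist1h2ba was at 15.8 to 38.6 CPM in control LK/CLP and 18.3 to 57.6 CPM in leukaemia BM LK/CLP.

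Several copies could not be told apart. Hist1h2bq and Hist1h2br totalled 168813 and 168848 counts over the 36 libraries. They differed by at most 1.45% of their counts in any library, with a median of 0.0871%. Hist1h2ao and Hist1h2ap differed by at most 7.06%. Of all 50-base windows in a gene's coding sequence, the median share also present in another gene of the family was 82.0% for H2A, 80.4% for H2B, 79.0% for H3, 70.9% for H4 and 10.9% for H1. No source used here says how reads that fit several copies were counted. Values of single H2A, H2B, H3 and H4 genes are therefore uncertain between copies. Whether the same reads were counted for more than 1 copy was not tested. If they were, sums over a class or the family and counts of members called would include those reads more than once. Hist1h1e overlaps Hist1h2be by 496 bases on the same strand, and Hist3h2a lies inside Trim17 on the same strand, so their counts may also be shared.

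In the controls the comparison of cell types asked how the sorted progenitors differ without leukaemia. The linker histone gene Hist1h1b showed the widest gap. It was at 21.3, 21.1, 20.8 and 16.6 CPM in HSC/MPP replicates 1 to 4, at 16.1, 57.0, 35.5 and 65.0 CPM in LMPP and at 244, 228, 219 and 256 CPM in LK/CLP. Hist1h1c, also called H1.2, was at 76.3, 77.3, 78.8 and 49.0 CPM in HSC/MPP, at 63.0, 178, 88.4 and 209 CPM in LMPP and at 451, 415, 358 and 415 CPM in LK/CLP. All LK/CLP libraries were above all HSC/MPP and LMPP libraries for both genes. The H3 gene Hist1h3b was at 38.7, 45.0, 43.5 and 30.1 CPM in HSC/MPP and 346, 345, 244 and 328 CPM in LK/CLP. The H4 gene Hist1h4b was at 3.28, 3.95, 2.21 and 1.41 CPM in HSC/MPP and 22.7, 19.9, 25.9 and 22.3 CPM in LK/CLP. The H2A gene Hist1h2ad was at 13.3, 11.7, 8.97 and 8.45 CPM in HSC/MPP and 54.1, 82.7, 36.4 and 68.4 CPM in LK/CLP. None of these ranges overlapped.

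By edgeR's quasi-likelihood test with Benjamini-Hochberg adjustment over all genes tested, 56 of the 59 members tested were lower in control HSC/MPP than in LK/CLP and none was higher, where 25% of all 41609 genes tested were lower. They were 5 of 6 H1 genes, 13 of 14 H2A genes, 16 of 17 H2B genes, all 10 H3 genes and all 12 H4 genes. The median log2 fold change of the 59 was -4.10, against 0.31 over all genes tested and -1.57 over the genes above background in the same fit. Hist1h1b fell by 4.95 ± 0.41 on the log2 scale (SE; edgeR adjusted p = 2.02e-11), Hist1h1a by 4.59 ± 0.40, Hist1h3b by 4.402 ± 0.41, Hist1h3g by 4.37, Hist1h2bk by 4.34 and Hist1h4b by 4.34 ± 0.31. Hist1h1c fell by 3.94 ± 0.41 (edgeR adjusted p = 1.09e-09), Hist1h1d by 4.10, Hist1h2ad by 3.88, Hist1h2ai by 3.90, Hist1h2br by 4.05, Hist1h2bq by 4.06, Hist2h3c2 by 4.26, Hist1h4h by 4.13 and Hist1h4d by 4.04.

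With only genes above background, the fall from LK/CLP to HSC/MPP was called for 55 of 55 members tested, against 33.9% of 11568 genes, and the median was smaller, at -2.50 with 0.04 over all those genes. There Hist1h1b fell by 3.33 ± 0.26 on the log2 scale (edgeR adjusted p = 1.52e-08). The smallest called changes were of Hist1h2ac, at -1.28 ± 0.23, and of the H4 gene Hist2h4, at -1.61. The level of the whole family was 6.62-fold higher in LK/CLP in CPM, 17.0-fold with the scaling over all genes and 7.28-fold with the scaling over genes above background.

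Control LMPP libraries were also below LK/CLP in the family's level, by 3.49-fold in CPM, 6.55-fold with the scaling over all genes and 3.47-fold with the scaling over genes above background. Of the 59 members, 55 were lower in control LMPP than in LK/CLP, where 24.5% of all genes tested were lower, with a median of -2.88 against 0.22 over all genes and -1.42 over genes above background in that fit. Hist1h4b fell by 3.59 ± 0.29 on the log2 scale (edgeR adjusted p = 3.62e-11), Hist1h1b by 3.53 ± 0.38, Hist1h2bh by 3.24, Hist1h4n by 3.21, Hist1h4m by 3.20 and Hist1h1e by 3.11. Hist1h1c fell by 2.71 ± 0.39. All 55 members tested over genes above background were lower, against 31.8% of those genes, with a median of -1.50. Hist1h1t, Hist3h2a, Hist2h2be and Hist3h2ba were again not tested there. Both comparisons share the 4 LK/CLP libraries. Erythroid marker genes moved with the LK/CLP group: their 12 genes summed to 815 to 1048 CPM there, against 159 to 193 CPM in HSC/MPP and 127 to 206 CPM in LMPP, with no marker at 0 in a whole group. The part of erythroid cells in the histone levels was not tested.

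Between control HSC/MPP and LMPP only the linker histone Hist1h1a, at -1.77 ± 0.36 on the log2 scale (edgeR adjusted p = 0.019), and the H2B gene Hist1h2bm, at -1.50 ± 0.33 (edgeR adjusted p = 0.0391), fell, which is 2 of 59 members against 0.111% of all genes. The median was -1.19, 55 of the 59 had an unadjusted p under 0.05, and the 2 groups share the same 4 mice. The share of all genes at that unadjusted level is not given here or with later counts of this kind. Such counts therefore cannot be read as particular to the histones. Hist1h1a was at 30.01, 25.4, 25.4 and 19.2 CPM in HSC/MPP and 29.7, 102, 47.9 and 103 CPM in LMPP, so LMPP replicate 1 lay among the HSC/MPP libraries. When fitted over genes above background, 22 of 55 members were lower, 4 H1, 2 H2A, 8 H2B, 6 H3 and 2 H4 genes, against 1.61% of those genes. With the mouse as a block the count was 0 over all genes tested and 5 over genes above background. It was 42 without LMPP replicate 1, 5 without LK/CLP replicate 3, 1 without LK/CLP replicate 2 or 4, and 0 without any single HSC/MPP library or LMPP replicate 2, 3 or 4. For these counts the share of all genes called is not given, so they cannot be read as particular to the histones.

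A few members did not follow the rest. The H2B gene Hist2h2be, known to also give polyadenylated mRNA in non-dividing cells, was at 10.3, 8.35, 5.65 and 7.32 CPM in control HSC/MPP, at 6.65, 6.93, 6.95 and 7.31 CPM in LMPP and at 4.36, 2.38, 4.71 and 2.87 CPM in LK/CLP. Its CPM were thus highest where the family was lowest, with no overlap between HSC/MPP and LK/CLP, but its log2 difference was -0.24 ± 0.26 (edgeR adjusted p = 0.468). Its share of the family's counts was 0.573% ± 0.125 in control HSC/MPP and 0.0410% ± 0.0193 in LK/CLP (SD, n = 4). Background made up 55.6% of its counts in control HSC/MPP and 34.99% in LK/CLP, and its part in this pattern was not tested further. Hist3h2a was at 6.34, 4.29, 2.83 and 5.35 CPM in HSC/MPP and 1.21, 2.93, 2.06 and 1.21 CPM in LK/CLP, with background at 76.1 and 62.8% of its counts. Its log2 difference was 0.06 ± 0.33 (edgeR adjusted p = 0.888), and that of Hist1h1t was 0.04 ± 0.35 (edgeR adjusted p = 0.941). Hist3h2ba fell by 1.40 ± 0.52 on the log2 scale (edgeR adjusted p = 0.0284), but the call was lost without LK/CLP replicate 4 (-0.35), HSC/MPP replicate 2 (-1.38) or HSC/MPP replicate 3 (-1.20).

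**Figure D3:**
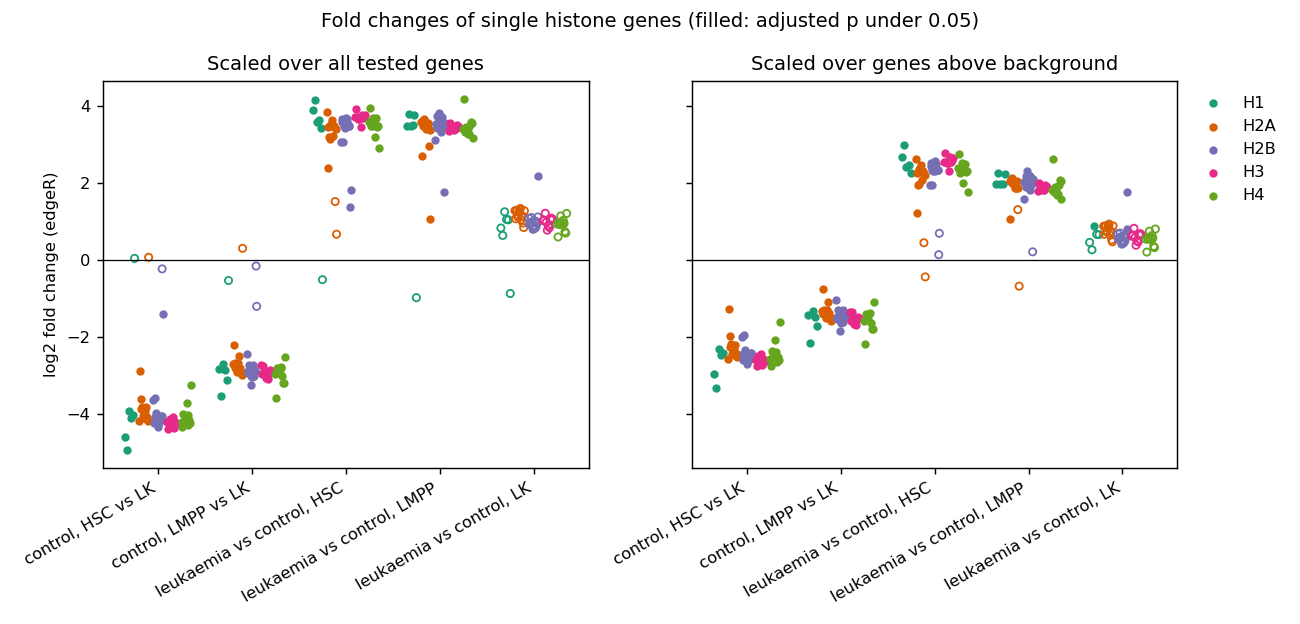
Log2 fold changes of single members in 5 comparisons, by class, scaled over all tested genes on the left and over genes above background on the right. Each point is a gene, and filled points have an adjusted p under 0.05. In control HSC/MPP against LK/CLP the median moved from -4.10 on the left to -2.50 on the right.

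Leukaemia was set against control in BM, within each cell type. The leukaemic mice overexpressed the microRNA and the controls carried a scrambled one, and the 2 groups were deposited in separate tables. Table, microRNA and disease therefore cannot be told apart. In HSC/MPP, the linker histone Hist1h1c was at 364, 402, 281 and 431 CPM in leukaemia BM, and Hist1h1b at 176, 157, 106 and 185 CPM. Hist1h3b was at 257, 269, 204 and 340 CPM, Hist1h4b at 16.3, 18.6, 20.2 and 21.4 CPM, Hist1h2ad at 49.6, 56.0, 48.5 and 46.0 CPM and Hist1h2br at 294, 280, 249 and 371 CPM. All 4 leukaemia libraries were above all 4 control libraries for each of these 6 genes.

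In HSC/MPP 57 of 60 members rose in leukaemia and none fell, where 20.3% of 43483 genes rose. The median log2 fold change was 3.48, with -0.12 over all genes tested and 1.15 over genes above background in the same fit. Hist1h1b rose by 4.13 ± 0.50 (SE; edgeR adjusted p = 2.31e-07), Hist1h4b by 3.93 ± 0.45, Hist1h3b by 3.91, Hist1h1a by 3.89, Hist1h2ab by 3.83 and Hist2h3c2 by 3.75. The 3 members that did not pass were Hist1h1t at -0.52, Hist3h2a at 0.66 and Hist2h2ab at 1.51. Over genes above background 55 of 59 rose, against 27.9% of those genes, with a median of 2.33 and -0.03 over all of them. Hist1h1t was not tested in that fit, which also covered LMPP and LK/CLP. The family's summed CPM was 5.24-fold higher in leukaemia HSC/MPP. Neutrophil markers, 10 genes with none at 0 in a whole group, summed to 355 to 1194 CPM in leukaemia BM HSC/MPP and 97.8 to 125 CPM in control HSC/MPP, and their part in the result was not tested. Hist2h2be, which rose by 1.36 over all genes (edgeR adjusted p = 0.00547), was at 0.13 over genes above background (edgeR adjusted p = 0.69), and Hist3h2ba, at 1.81 over all genes (edgeR adjusted p = 0.012), was at 0.69 there (edgeR adjusted p = 0.29). Hist3h2ba also lost its call without leukaemia BM HSC/MPP replicate 1, at 1.48, or control HSC/MPP replicate 3, at 1.62.

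LMPP changed in the same direction. Here 59 of 60 members rose, where 26% of all genes rose, with a median of 3.48, against -1.10 over all genes tested and 1.64 over genes above background. Hist1h4b, at 31.0, 14.8, 27.2 and 26.2 CPM in leukaemia BM and 1.36, 5.10, 4.396 and 4.87 CPM in control, rose by 4.18 ± 0.44 (edgeR adjusted p = 9.25e-09). Hist1h2bh rose by 3.80, Hist1h1b by 3.79, Hist1h1e by 3.76, Hist1h2bf by 3.72, Hist1h2bn by 3.69 and Hist1h1c by 3.48 ± 0.51. Hist1h1t was at -0.98 (edgeR adjusted p = 0.184). Over genes above background 56 of 59 rose, against 33.3% of those genes, with a median of 1.95. Hist3h2a turned from 1.06 (edgeR adjusted p = 0.0354) to -0.69 there.

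LK/CLP showed a smaller difference. The family's summed CPM was 1.36-fold higher in leukaemia BM, with overlapping libraries, and 1 of 60 members rose, against 2.22% of all genes, with a median of 1.00 and 0.30 over genes above background in the same fit. That gene was Hist3h2ba, at 3.41, 3.47, 5.67 and 5.54 CPM in leukaemia and 0.742, 0.549, 0.866 and 3.70 CPM in control, where its highest library lay inside the leukaemia range. It rose by 2.18 ± 0.52 (edgeR adjusted p = 0.00881). Hist1h1c was at 474, 735, 813 and 703 CPM in leukaemia and 451, 415, 358 and 415 CPM in control, with no overlap, and passed over genes above background at 0.87 ± 0.30 (edgeR adjusted p = 0.0462). There 3 of 59 members rose, Hist3h2ba, Hist1h1c and Hist2h2be, against 9.76% of those genes. Without leukaemia BM LK/CLP replicate 1 the count over all genes was 14, without leukaemia BM HSC/MPP replicate 4 it was 2, and without control LK/CLP replicate 2 or 3 or leukaemia BM LK/CLP replicate 3 it was 0. Shares of all genes called without these libraries are not given. The neutrophil markers summed to 429 to 6789 CPM in leukaemia BM LK/CLP and 24.01 to 42.1 CPM in control LK/CLP. The erythroid markers moved the other way, at 146 to 348 CPM in leukaemia BM LK/CLP and 815 to 1048 CPM in control LK/CLP. The part of either list in this result, or in the disease by cell type tests that use the same libraries, was not tested.

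The test of the difference between differences asked whether the gap between cell types differed between leukaemia and control mice. For HSC/MPP against LK/CLP it did for 51 of 60 members, all with a smaller gap in leukaemia, where 6.06% of all genes were called in that direction. Hist1h1b differed by 3.50 ± 0.64 on the log2 scale (edgeR adjusted p = 0.00184), Hist1h4b by 3.34 ± 0.58 and Hist1h1a by 3.07, while Hist1h2ac was at 1.31 (edgeR adjusted p = 0.209) and Hist3h2a at -0.61. The count was 46 of 59 over genes above background, against 14.6% of those genes, with a median of 1.75. It was 29 over all genes without leukaemia BM LK/CLP replicate 2, 33 without leukaemia BM LK/CLP replicate 1 and 31 without control LK/CLP replicate 1, with no share of all genes given for these 3 fits. For LMPP against LK/CLP 55 of 60 members were called, against 14.3% of all genes, led by Hist1h4b at 3.59 ± 0.57 (edgeR adjusted p = 0.000265) and Hist1h1b at 3.16 ± 0.64. In the fit over genes above background 39 were called in that direction, against 18.3% of those genes, and Hist3h2a in the other, at -1.56 ± 0.58 (edgeR adjusted p = 0.0386). These tests share the LK/CLP libraries.

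The cell types were then compared within leukaemia. In BM, HSC/MPP against LK/CLP gave 0 of 60 members called, as for 0% of all genes, while 56 had an unadjusted p under 0.05, with no share of all genes given for that level. DESeq2 called 11, all lower in HSC/MPP, where it called 0.0843% of all genes lower. The median of the members was -1.51, with -0.44 over genes above background in the same fit, and -0.97 when fitted on those genes, where again none was called. Hist1h1c was at 474 to 813 CPM in BM LK/CLP and 281 to 431 CPM in BM HSC/MPP, with no overlap. For HSC/MPP against LMPP none was called (0% of all genes; median -1.24; 53 with an unadjusted p under 0.05; 3 by DESeq2, lower, where it called 0.632% of all genes lower), and for LMPP against LK/CLP none (0% of all genes; median -0.31; 0 with an unadjusted p under 0.05; 0 by DESeq2).

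The same cell types were compared in CNS. The family's level was 1.92-fold lower in CNS HSC/MPP than in CNS LK/CLP in CPM, 3.48-fold with the scaling over all genes and 2.02-fold with the scaling over genes above background, with no overlap on any of these scales. Over all genes tested 0 of 60 members were called, as for 0% of all genes, with 55 at an unadjusted p under 0.05 and 51 called lower by DESeq2, against 4.27% of all genes by that tool. The fit over genes above background gave 29 of 59 lower in HSC/MPP, against 5.09% of those genes: 11 H2A, 10 H4, 3 H1, 3 H2B and 2 H3 genes. Hist1h2ad, at 19.3, 27.1, 32.8 and 25.2 CPM in CNS HSC/MPP and 44.6, 75.6, 53.8 and 96.1 CPM in CNS LK/CLP, fell by 1.46 ± 0.33 on the log2 scale (edgeR adjusted p = 0.0205). Hist1h2ae fell by 1.48 ± 0.36, Hist1h2af by 1.45, Hist1h2ah by 1.43, Hist1h4i by 1.42 and Hist2h2ac by 1.41 ± 0.30 (edgeR adjusted p = 0.0184). Against CNS LMPP none was called over all genes (0.0595% of all genes; median -1.45; 57 at an unadjusted p under 0.05; 24 lower by DESeq2, against 5.4% of all genes by that tool), and over genes above background 4 H2A genes were lower, against 7.52% of those genes. They were Hist1h2af at -1.04, Hist1h2ad at -1.001, Hist1h2ab at -0.94 and Hist2h2ac at -0.93. For CNS LMPP against LK/CLP none was called (0.00496% of all genes; median -0.34; 0 at an unadjusted p under 0.05; 0 by DESeq2).

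The CNS result rested in part on single libraries. Over all genes tested, the count for HSC/MPP against LK/CLP was 55 without CNS HSC/MPP replicate 1, 17 without BM HSC/MPP replicate 4 and 14 without CNS LK/CLP replicate 1. Against LMPP it was 54 without CNS HSC/MPP replicate 1 and 1 without BM HSC/MPP replicate 4. The shares of all genes called without these libraries are not given here, so these counts cannot be read as particular to the histones. Macrophage and microglia markers, 14 genes with none at 0 in a whole group, summed to 140 to 2105 CPM in CNS HSC/MPP, 97.0 to 388 CPM in CNS LMPP and 78.4 to 131 CPM in CNS LK/CLP. Their part in the histone levels was not tested.

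The comparison of niches, which the study's title names, set CNS against BM cells of the same mouse. The family's CPM was lower in CNS in 12 of 12 mice, by 0.56 ± 0.38 on the log2 scale (mean ± SD over mice). The log2 ratios of CNS to BM were -0.71, -1.03, -0.14 and -0.75 for the HSC/MPP mice, -1.02, -0.58, -0.32 and -0.14 for the LMPP mice, and -0.09, -0.54, -1.13 and -0.23 for the LK/CLP mice. The ranges of the 3 cell types overlapped. By class the mean was -0.66 ± 0.36 for H2A, -0.59 ± 0.38 for H2B, -0.56 ± 0.46 for H1, -0.53 ± 0.44 for H3 and -0.50 ± 0.40 for H4, lower in CNS in 12 mice for H2B and in 11 of 12 mice for each other class.

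Summed markers of other cell types were also set side by side between BM and CNS. The 10 neutrophil markers summed to 355 to 1194 CPM in BM and 26.6 to 751 CPM in CNS for HSC/MPP, and to 429 to 6789 CPM in BM and 102 to 924 CPM in CNS for LK/CLP, while in LMPP they were at 10.4 to 2888 CPM in BM and 10.2 to 23.3 CPM in CNS. The 14 macrophage and microglia markers summed to 87.4 to 249 CPM in BM and 140 to 2105 CPM in CNS for HSC/MPP, to 45.6 to 135 CPM and 97.0 to 388 CPM for LMPP, and to 94.5 to 136 CPM and 78.4 to 131 CPM for LK/CLP. No marker of either list was at 0 in a whole group, and the part of these cells in the niche values was not tested.

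Scaling changed how uniform this was. With the scaling over all tested genes the family's mean was -0.35 ± 0.90 and 7 of 12 mice were lower in CNS, and with the scaling over genes above background it was -0.37 ± 0.38 and 11 of 12 were lower. In leukaemia HSC/MPP the H2A genes together were at 481.6, 494.5, 407.0 and 491.3 CPM in BM and at 213.8, 263.5, 309.7 and 289.2 CPM in CNS, which did not overlap. Their ranges overlapped with the scaling over all genes, at 228.9 to 525.3 in BM and 143.2 to 344.8 in CNS, and with the scaling over genes above background, at 353.7 to 480.6 in BM and 225.6 to 373.5 in CNS. In LMPP the H2A genes were at 857.4, 474.5, 575.5 and 926.7 CPM in BM and 444.1, 271.9, 451.5 and 642.4 CPM in CNS, and in LK/CLP at 445.2, 975.6, 1128.8 and 1091.1 CPM in BM and 455.3, 659.0, 518.0 and 849.2 CPM in CNS, and both of these pairs of ranges overlapped.

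**Figure D4:**
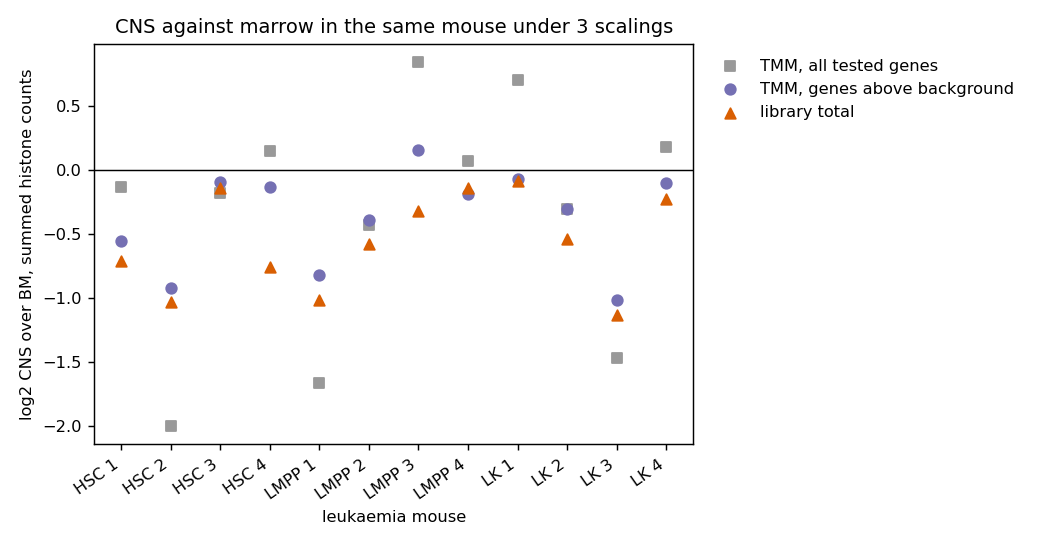
Log2 ratio of CNS to BM for the family in each of the 12 leukaemic mice under 3 scalings: raw CPM, scaling over all tested genes and scaling over genes above background. All 12 mice were below 0 in raw CPM, 7 with the scaling over all genes and 11 with the scaling over genes above background.

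Gene by gene, the niche fit over all tested genes called 0 of 60 members (0% of all genes), with 9 at an unadjusted p under 0.05 and 0 called by DESeq2. The median was -0.38, against 0.03 over all genes. Within HSC/MPP, LMPP and LK/CLP taken singly the counts were also 0 (0% of all genes in each), with 1, 0 and 0 at an unadjusted p under 0.05 and none by DESeq2. The medians there were -0.54, -0.32 and -0.29. The test of whether the niche difference depended on the cell type called 0 members, 0% of all genes, with 0 at an unadjusted p under 0.05 and 0 by DESeq2. In the fit over all cell types Hist1h1c was at -0.35 ± 0.32, Hist1h1d at -0.35, Hist1h2ad at -0.60 ± 0.28, Hist1h2ai at -0.57, Hist1h2br and Hist1h2bq at -0.44, Hist1h3b at -0.36, Hist2h3c2 at -0.37, Hist1h4h at -0.36 and Hist1h4d at -0.27.

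Pairing by mouse together with the restriction to genes above background brought calls. In that fit 15 of 59 members fell in CNS, against 0.806% of 16007 genes, and 51 had an unadjusted p under 0.05. The median was -0.39, with 0.00 over all those genes. Of the 15, 10 were H2A genes: Hist1h2af at -0.56 ± 0.09 (edgeR adjusted p = 0.00775), Hist1h2ag at -0.56, Hist1h2ah at -0.56, Hist1h2ad at -0.54 ± 0.11 (edgeR adjusted p = 0.0222), Hist1h2ao, Hist1h2ap and Hist1h2ae at -0.51, Hist1h2ai at -0.50, Hist1h2ab at -0.49 and Hist1h2an at -0.47. The other 5 were the H2B genes Hist1h2bn at -0.48, Hist1h2bp at -0.47, Hist1h2bb at -0.45, Hist1h2bl at -0.44 and Hist1h2bm at -0.40. No H1, H3 or H4 gene was among them, but a difference between the classes was not tested, and Hist1h1c was at -0.40 ± 0.15 and Hist1h4h at -0.33 ± 0.13.

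Hist1h2af is shown as an example from the called members and not as a typical member. Its values are in CPM, on which the family's niche difference was larger than with the scaling over genes above background. Hist1h2af was at 22.5, 25.4, 19.8 and 27.2 CPM in BM HSC/MPP and 8.95, 12.7, 16.4 and 13.9 CPM in CNS HSC/MPP of the same mice in order. In LMPP it was at 52.1, 23.99, 45.6 and 52.6 CPM in BM and 25.0, 16.3, 25.1 and 36.3 CPM in CNS, and in LK/CLP at 26.0, 53.6, 53.4 and 63.1 CPM in BM and 20.5, 35.99, 28.3 and 49.4 CPM in CNS. In CPM the CNS library was lower in all 12 mice. Neither the mouse block alone (0 called, 5 at an unadjusted p under 0.05) nor the restriction to genes above background alone (0 called, 30 at an unadjusted p under 0.05) gave calls. Leaving out 1 mouse at a time, the count was 1 without HSC/MPP mouse 1, LMPP mouse 1, or LK/CLP mouse 3 or 4, 4 without LK/CLP mouse 2, 5 without LMPP mouse 2 and 7 without HSC/MPP mouse 3. Across the 12 fits with a mouse left out, the number of all genes that fell ran from 15 to 177. Only Hist1h2af was called in all 12 of these fits.

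The genes that act with the clustered histones were taken from fixed lists. Of 30 genes of DNA replication, 30 fell in control HSC/MPP against LK/CLP, with a median of -2.85, and 25 of 29 fell over genes above background, with a median of -1.32. The shares of all genes that fell in these fits were 25% and 33.9%, and these apply to the next lists too. Among them were Rrm2, a subunit of ribonucleotide reductase, at -2.29, Dut, which removes dUTP, at -2.27, and the helicase subunits Mcm4 at -2.23 and Mcm6 at -1.96, all over genes above background. All 20 genes of G2 and mitosis fell in both fits, with medians of -2.74 and -1.12, led by the proliferation antigen gene Mki67 at -2.17 and Top2a at -1.94 in the latter. Of 20 genes that make or degrade histone mRNA, 19 fell over all genes tested, with a median of -2.25. Over genes above background 13 of 19 fell and 2 rose, with a median of -0.77. The falls included Slbp, the stem-loop binding protein, at -1.06 ± 0.11, the decay factor Upf1 at -1.17, the cap-binding protein gene Ncbp1 at -1.13 and Casp8ap2 at -1.04. The rises were Coil, a Cajal body protein gene, at 0.88 ± 0.20 and Lsm11, a subunit of the U7 particle that cuts histone mRNA, at 0.62 ± 0.17. The medians of all genes in these fits were 0.31 and 0.04.

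Leukaemia HSC/MPP against control showed these lists moving the other way. Over all genes tested 29 of the 30 replication genes, 20 of 20 G2 and mitosis genes and 17 of 20 histone mRNA genes rose, with medians of 2.21, 2.33 and 1.82, where 20.3% of all genes rose. Over genes above background the counts that rose were 24, 18 and 14, with medians of 0.97, 1.11 and 0.59, where 27.9% of those genes rose and the median of the clustered histones was 2.33. Npat, the coactivator of clustered histone genes, was at 1.29 ± 0.23 in that fit, the terminal uridylyltransferase gene Tut4 at 1.17, Upf1 at 0.98, Rrm2 at 1.77 and Mki67 at 2.24, while Coil fell, at -0.55. In LK/CLP none of the replication and histone mRNA genes and 1 of the 20 G2 and mitosis genes, Nusap1 at 1.26 ± 0.37 (edgeR adjusted p = 0.0464), rose over all genes tested.

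The histone level was also set against that of the 30 replication genes within each library, after removing background. The ratio of histone counts to replication gene counts was 2.44 in control HSC/MPP (2.01 to 2.80 over the 4 libraries), 3.34 in control LMPP (2.58 to 4.17) and 3.81 in control LK/CLP (2.91 to 4.64). Control HSC/MPP libraries were below all LK/CLP libraries. In leukaemia the group means were 5.22 in BM HSC/MPP (3.41 to 9.08), 4.94 in BM LMPP, 6.16 in BM LK/CLP (3.77 to 8.02), 5.11 in CNS HSC/MPP (3.16 to 7.94), 5.42 in CNS LMPP and 5.14 in CNS LK/CLP (3.01 to 6.44). The leukaemia BM and control ranges overlapped in LK/CLP and in LMPP, where leukaemia BM lay at 3.91 to 5.93, and did not overlap in HSC/MPP. The ratio to the 20 G2 and mitosis genes was 3.93 in control HSC/MPP (3.42 to 4.99) and 5.53 in control LK/CLP (4.09 to 6.82), which overlapped. Between niches the log2 ratio of CNS to BM was -0.04 ± 0.34 for histones per replication gene count (lower in CNS in 8 of 12 mice) and 0.03 ± 0.34 per G2 and mitosis gene count (lower in 6 of 12). Per count of the 20 histone mRNA genes it was -0.24 ± 0.33, lower in 9 of 12 mice. Without removing background these were -0.08 ± 0.31 (9 of 12), 0.00 ± 0.33 (7 of 12) and -0.29 ± 0.26 (10 of 12).

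**Figure D5:**
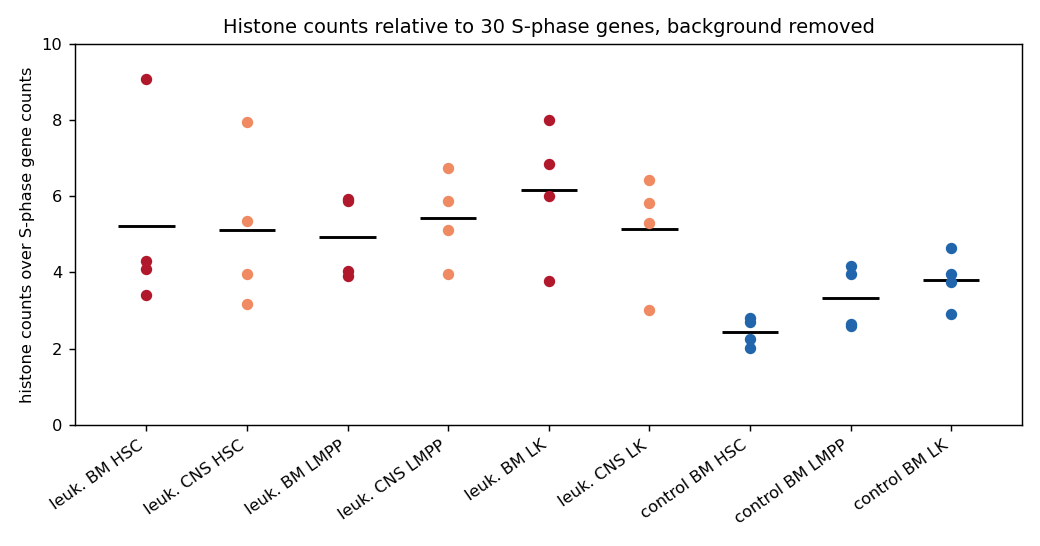
Counts of the 60 histone genes divided by counts of the 30 replication genes in each library, background removed, with bars at the group means over 4 libraries. Control HSC/MPP lay at 2.01 to 2.80 and leukaemia BM HSC/MPP at 3.41 to 9.08.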

How the data were processed

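Bulk total RNA libraries of sorted cells were sequenced by the authors, 24 from leukaemic and 12 from control mice. The values are whole-number counts per gene, deposited by the authors in a leukaemia and a control table. The labels call both tables normalised, but every value is a whole number and library totals range widely, so the values were taken as unscaled counts. The submitters' processing notes name DESeq2 and GRCm39. No source used here gives the aligner, the counter or the use of strand. Gene symbols were matched to 52081 of 55414 identifiers.

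Counts with 10 or more in 4 or more libraries of a fit were tested with edgeR 4.0.16 (R 4.3.3) by the quasi-likelihood test, with TMM scaling, group means without a block and Benjamini-Hochberg adjustment over all genes at 0.05. Fits covered 24 leukaemia, 12 control and 24 joined BM libraries. Standard errors were derived from F. Alternatives were DESeq2 1.42.0, median-of-ratios scaling, no low-count filter, genes above background (16007 in leukaemia, 11568 in control and 15633 in the joined BM libraries), a replicate block and each library left out. The script was tested on simulated data.

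Mouse IDs in the labels pair BM with CNS and the 3 control cell types. The correlation of paired deviations had a median of 0.25 over 12 leukaemia pairs (over 0.1 in 8) and -0.03 over 12 control pairs (over 0.1 in 3). No replicates were duplicates. The members and lists were chosen with earlier results of these data known. Named genes were the 2 highest members per class, members that passed (the 6 largest changes where over 12 did), up to 4 passing genes per direction of another list, and testis histones.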

Additional observations from a re-analysis of the deposited data

Results flagged for a closer look

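In each group of 4 libraries a value was singled out when its gap to the nearest other library exceeded Dixon's 95% limit for its share of the group's range. Of 180 such tests on single members and class sums, 12 met this, and chance alone gives about 1 in 20. Control LK/CLP replicate 3 was low for the family at 7076 CPM, for H2B genes together at 2182.4 CPM, for Hist1h2bq and Hist1h2br at 286.7 and 286.9 CPM (near-identical copies) and for Hist1h1d at 334.9 CPM. Control HSC/MPP replicate 4 was low for Hist1h1c at 49.0 CPM and for Hist1h4d at 34.1 CPM. In leukaemia, BM HSC/MPP replicate 3 was low for the H2A genes together at 407.0 CPM and CNS HSC/MPP replicate 2 was low for Hist1h4d at 90.5 CPM. High values were those of the H1 genes together in CNS LMPP replicate 4, at 2315 CPM, of the testis H2B gene Hist1h2ba in BM HSC/MPP replicate 4, at 33.5 CPM, and of the testis H1 gene Hist1h1t in control LMPP replicate 2, at 4.31 CPM.

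The gap between cell types differed between leukaemia and control, by a test of the difference itself, for 51 members in HSC/MPP against LK/CLP and for 55 in LMPP against LK/CLP. Of all genes, 6.06% and 14.3% were called in the same direction.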

How the results depend on the processing

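Counts of members called that moved by over 1.5 times were as follows. DESeq2 gave 11 for leukaemia BM HSC/MPP against LK/CLP, 3 for BM HSC/MPP against LMPP, 51 and 24 for the same pairs in CNS, 18 for control HSC/MPP against LMPP and 3 for leukaemia against control LK/CLP. Median-of-ratios scaling gave 8 for CNS HSC/MPP against LK/CLP, 1 for control HSC/MPP against LMPP and 0 for leukaemia against control LK/CLP. Genes above background gave 29, 4, 22 and 3 for CNS HSC/MPP against LK/CLP, CNS HSC/MPP against LMPP, control HSC/MPP against LMPP and leukaemia against control LK/CLP. No filter on low counts gave 14 for CNS HSC/MPP against LK/CLP and 5 for control HSC/MPP against LMPP. The replicate block by mouse gave 0 for control HSC/MPP against LMPP, and with genes above background 5 there and 15 for CNS against BM. It changed no other count by over 1.5 times. Counts in this section given without a share of all genes cannot be read as particular to the histones.

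The log2 ratio of the family's group means was -4.09 for control HSC/MPP against LK/CLP, -2.73 in CPM of the raw total and -2.86 scaled over genes above background. For leukaemia against control it was 3.46, 2.39 and 2.46 in HSC/MPP and 3.38, 1.94 and 2.03 in LMPP. Hist3h2a in leukaemia against control LMPP turned from 1.06 to -0.36 with DESeq2, -0.38 with median-of-ratios scaling and -0.69 over genes above background. The cause was not tested.

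Leaving out 1 library gave 0 to 42 for control HSC/MPP against LMPP, 29 to 54 for disease by HSC/MPP, 0 to 55 and 0 to 54 for CNS HSC/MPP against LK/CLP and LMPP, and 0 to 14 for leukaemia against control LK/CLP. The paired niche count without 1 mouse at a time was 1, 11, 7 and 15 for the HSC/MPP mice, 1, 5, 13 and 14 for the LMPP mice and 19, 4, 1 and 1 for the LK/CLP mice. Of counts and sums, 524 of 560 values with a library left out and 118 of 142 under other settings stayed within these limits. An alternative without genes under an older symbol only was not run, since all members carry one. Background limits what can be said of the lowest members: in control HSC/MPP it made up 38.6 to 97.1% of the counts of Hist1h1t, Hist1h2ac, Hist2h2be, Hist3h2ba, Hist3h2a and Hist2h2ab.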

Other observations

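Of 11 replication-independent histone genes, which are also expressed outside S phase, 10 fell in control HSC/MPP against LK/CLP over all genes tested, where 25% of all genes fell. Over genes above background 7 of 10 fell and 1 rose, with a median of -1.20, where 33.9% of those genes fell. In the latter fit H2afx, whose transcript also carries the stem-loop, fell by 2.69 ± 0.25 on the log2 scale, H2afz by 2.30 ± 0.19, the H3.3 gene H3f3a by 1.54 ± 0.18 and H2afy, which encodes macroH2A, by 1.53 ± 0.24. The linker histone of non-dividing cells, H1f0, rose, at 0.76 ± 0.16 (edgeR adjusted p = 0.000393). In leukaemia against control HSC/MPP, 7 of these genes rose over genes above background, where 27.9% of those genes rose, among them H2afx at 2.82 ± 0.30, H3f3a at 2.15 ± 0.23 and H2afz at 1.99 ± 0.23. H2afx was at 9.85 to 13.3 CPM in control HSC/MPP, 79.9 to 105 CPM in control LK/CLP and 72.9 to 89.6 CPM in leukaemia BM HSC/MPP.

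Of 22 genes of histone chaperones and importers, 22 fell in control HSC/MPP against LK/CLP over all genes tested, against 25% of all genes. In the fit over genes above background 17 of 20 fell and 1 rose, with a median of -1.12, against 33.9% of those genes that fell. Those with the largest falls were Nap1l1, a carrier of H2A and H2B, at -1.81 ± 0.16, Anp32e, which removes H2A.Z, at -1.80 ± 0.15, the FACT subunit gene Supt16 at -1.75 ± 0.16 and Dnajc9 at -1.71 ± 0.15. Tonsl, which binds newly made H4, rose, at 0.50 ± 0.15 (edgeR adjusted p = 0.00674). Between niches, in the fit paired by mouse over genes above background, no gene of the chaperone, processing and replication-independent lists was called, whereas the replication genes Cdc45 at -0.44 ± 0.09 and Pole at -0.43 ± 0.09 and the mitosis genes Kif11 at -0.54 ± 0.11 and Cdk1 at -0.36 ± 0.08 fell in CNS.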
